A study of Drosophila melanogaster with 2 samples.

Results

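Accessible sites at the ends of long non-coding RNA (lncRNA) genes were examined in ATAC-seq of S2 cells, a Drosophila line made from late embryos that resembles hemocytes, the blood cells of the fly. A site is a line of the deposited peak list, placed at its summit. It was taken when the summit lay within 250 bp of an annotated end of an lncRNA gene and more than 1 kb from every end of a protein-coding gene, with both roX genes left out. The rule found 440 sites among the 35535 of the list, and used their position only. Strength, width and neighbouring summits did not enter it. The 440 sites lay in 331 peak intervals and at the ends of 285 lncRNA genes.

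The series had 1 group, S2 cells of 1 cell line, with 2 libraries of 2000000 cells each, amplified for 12 PCR cycles. The sample labels used here name no treatment. The series belongs to a study of how PRC2, the complex that methylates lysine 27 of histone H3, is inhibited. The 2 libraries share 1 deposited list, so no site had a value per library or a replicate error, and no test across sites was run. The comparisons below are descriptions of that list, and their 95% intervals cover counting error only. Of 10 hemocyte marker genes, 9 had a summit within 250 bp of an end, with vkg, a type IV collagen gene, as the exception. Of 8 markers of other cell types 4 did, namely elav (neurons), repo (glia), vas (germline) and tj (ovarian soma). Over all 13946 protein-coding genes the share was 57.8%. By the highest number of overlapping fragments at such a summit, elav had 240, repo 168, vas 48 and tj 27. The 9 hemocyte markers ran from 33 at NimC1 to 682 at zfh1, with 92 at srp, so the 2 groups overlapped in strength.

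LncRNA genes are transcribed by RNA polymerase II into RNAs that encode no long protein. Some act as RNAs themselves, such as the heat shock RNA Hsromega, and others are primary transcripts from which microRNAs are cut. ATAC-seq marks DNA that the Tn5 transposase can reach, which is typical of active promoters and of enhancers alike. The annotation used here gave the left and right end of each gene without strand, so the start of an lncRNA gene could not be told from its finish.

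Most lncRNA genes had no accessible site at their ends. The gene table held 1993 lncRNA genes on 7 chromosomes, and 1612 of these had at least 1 end more than 1 kb from all protein-coding ends. Of these 1612 genes 284 had a site, or 17.6% (95% exact interval 15.8 to 19.6%). Protein-coding genes, taken at ends more than 1 kb from every lncRNA end and from other protein-coding ends, had a summit within 250 bp of such an end in 28.9% of 5994 genes (27.8 to 30.1%). The intervals of these shares did not overlap, but the rules behind them differed. A summit at an lncRNA end had itself to lie more than 1 kb from protein-coding ends. No such limit was set on summits at protein-coding ends, and lncRNA ends could lie close to other lncRNA ends. Counted by ends, 350 of 2898 lncRNA ends had a site (12.1%, 10.9 to 13.3%), against 1816 of 8415 protein-coding ends (21.6%, 20.7 to 22.5%). Both ends had a site in 79 lncRNA genes (4.90%). In these counts 1 summit within 250 bp of both ends of a short gene counted for each end. An example was CR43604, a gene of 201 bp. A further 138 genes (8.56%) had a summit inside but none at an end that met the rule, and 1190 (73.8%) had neither.

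The share was higher for lncRNA genes that lie within a protein-coding gene. There 104 of 434 genes had a site (24.0%, 20.0 to 28.3%), against 180 of 1178 lncRNA genes elsewhere (15.3%, 13.3 to 17.5%). Away from lncRNA ends, summits were also denser within protein-coding genes (22.3 per 100 kb) than outside them (10.9), so the higher share is not particular to lncRNA ends. Gene length hardly separated genes with a site from genes without. The median length was 718 bp (quartiles 491 and 1429 bp) for the 284 genes with a site and 719 bp (498 and 1194 bp) for the 1328 without. The highest share by length was among genes over 5000 bp, with 20 of 80 (25.0%, 16.0 to 35.9%), and its interval overlapped that of genes up to 500 bp (77 of 421, 18.3%, 14.7 to 22.3%).

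Summits were only mildly denser at lncRNA ends than around them. In the 1.35 Mb within 250 bp of an lncRNA end and more than 1 kb from protein-coding ends there were 32.6 summits per 100 kb (29.6 to 35.8). Between 1 and 5 kb from lncRNA ends there were 22.0 per 100 kb (21.1 to 23.0), which gave a ratio of 1.48. At the 8415 protein-coding ends that stand alone, as counted above, the density was 53.9 per 100 kb (51.7 to 56.2), against 19.4 (18.8 to 19.9) between 1 and 5 kb from them, a ratio of 2.79. With protein-coding ends that lie close to each other included, it was 79.8 (78.2 to 81.5) against 21.5 (21.0 to 21.9), a ratio of 3.72. The largest gap between lncRNA and protein-coding ends lay just outside genes, though these bins covered unlike regions. At protein-coding ends, outside meant outside every protein-coding gene, so a flank within another such gene counted as inside. At lncRNA ends, outside meant outside every lncRNA gene and kept positions within protein-coding genes. Within 100 bp outside an end there were 28.2 summits per 100 kb (22.2 to 35.2) at lncRNA genes, 131 (122 to 140) at protein-coding ends that stand alone and 238 (231 to 246) at protein-coding ends with close ones included. Within 100 bp inside there were 32.1 (26.0 to 39.2) at lncRNA genes, 45.9 (41.9 to 50.1) at protein-coding ends that stand alone and 62.1 (59.4 to 64.9) with close ones included.

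The density of summits around lncRNA ends formed a broad shoulder and no sharp peak. Outside the lncRNA gene it was 28.2 per 100 kb up to 100 bp from the end, 29.0 from there to 250 bp, 29.6 to 500 bp, 26.3 to 1000 bp, 23.5 to 2000 bp and 21.4 to 5000 bp. The intervals of the first 4 of these bins overlapped. Inside the gene the density rose and fell over the same bins, at 32.1, 39.5 (33.5 to 46.3), 26.9, 36.7 (30.3 to 44.2), 28.6 and 19.2. The interval of the highest bin, 100 to 250 bp from the end, overlapped that of the bin from 500 to 1000 bp. It also overlapped those of the bins up to 100 bp and from 1000 to 2000 bp. It lay above those of the bins from 250 to 500 bp (21.8 to 32.9) and from 2000 to 5000 bp (15.3 to 23.8). The median summit lay 130 bp from its lncRNA end (quartiles 68 and 183 bp), and 173 of the 440 were within 100 bp. By the densities above, summits were no denser within 100 bp of the end than from there to 250 bp. Summits were inside an lncRNA gene in 250 cases and outside in 190, and at the left end in 227 and at the right end in 213.

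**Figure D1:**
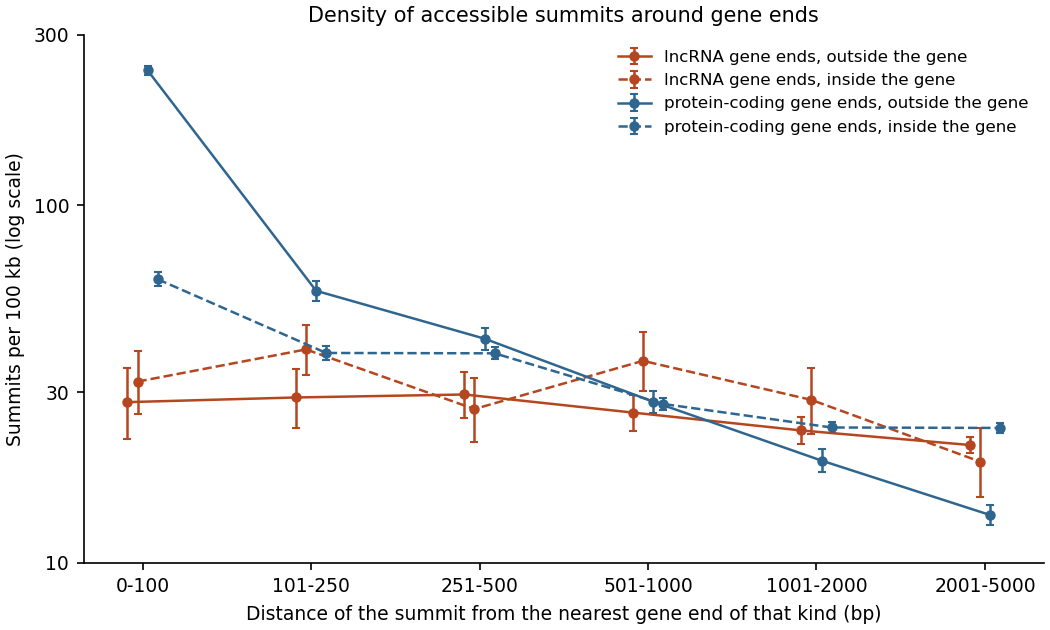
Summits per 100 kb (log scale) by distance from the nearest lncRNA gene end (over 1 kb from protein-coding ends) or protein-coding gene end (over 1 kb from lncRNA ends, close protein-coding ends included), with bars for 95% Poisson intervals and solid and dashed lines for positions outside and inside a gene of that kind. The lncRNA lines stay between 19.2 and 39.5, while the protein-coding line outside the gene is at 238 in the bin nearest the end.

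Density at lncRNA ends also differed by what surrounds them. Of the 440 sites 171 lay inside at least 1 of 101 protein-coding genes and 269 outside all of them. Within protein-coding genes the windows at lncRNA ends had 43.8 summits per 100 kb (37.5 to 50.9), against 22.3 (21.9 to 22.6) in the other parts of such genes more than 1 kb from their ends, a ratio of 1.97. Outside protein-coding genes the windows had 28.0 (24.7 to 31.5), against 10.9 (10.5 to 11.2) in the other intergenic bases, a ratio of 2.58. These intergenic bases include long stretches without genes, so the ratio of 1.48 to the bases 1 to 5 kb from the same ends is the narrower comparison.

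Sites at lncRNA ends were of middling fold but stood in stretches with much signal. Fold, as the authors deposited it, is pileup at the summit relative to the caller's local background. Its median was 3.75 at lncRNA ends (quartiles 2.38 and 6.20, range 1.35 to 21.6), 5.41 at 8762 sites at protein-coding ends (over 1 kb from lncRNA ends, close protein-coding ends included), 3.03 at 17484 sites more than 1 kb from every gene end and 3.61 over all 35535 sites. At or above the list's median fold were 231 of the 440 sites (52.5%), beside 50% of all sites. The pileup, the number of overlapping fragments recovered for each summit, had a median of 68.5 at lncRNA ends (33 and 165, range 20 to 3042). It was 76 at protein-coding ends (45 and 125), 47 away from gene ends and 56 over all sites. A pileup at the median of 68.5 carries a counting error of 12.1%.

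The upper part of the distribution was where lncRNA ends were high. Their upper quartile of pileup, 165, was above the 125 of protein-coding ends although their median was below. At or above 109 fragments, the upper quartile of the list, were 155 of the 440 sites (35.2%), beside 25.2% of all sites. The local background was higher too, with a median of 15.7 fragments (upper quartile 29.2), against 12.1 (15.8) at protein-coding ends, 12.6 (20.4) away from gene ends and 12.5 (18.6) over all sites. Yet 128 of the 440 sites (29.1%) stood at the genome-wide background of 9.91, the lowest value in the list, beside 30.9% of all sites. The 5 highest pileups at lncRNA ends had backgrounds of 60.2 to 297.

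**Figure D2:**
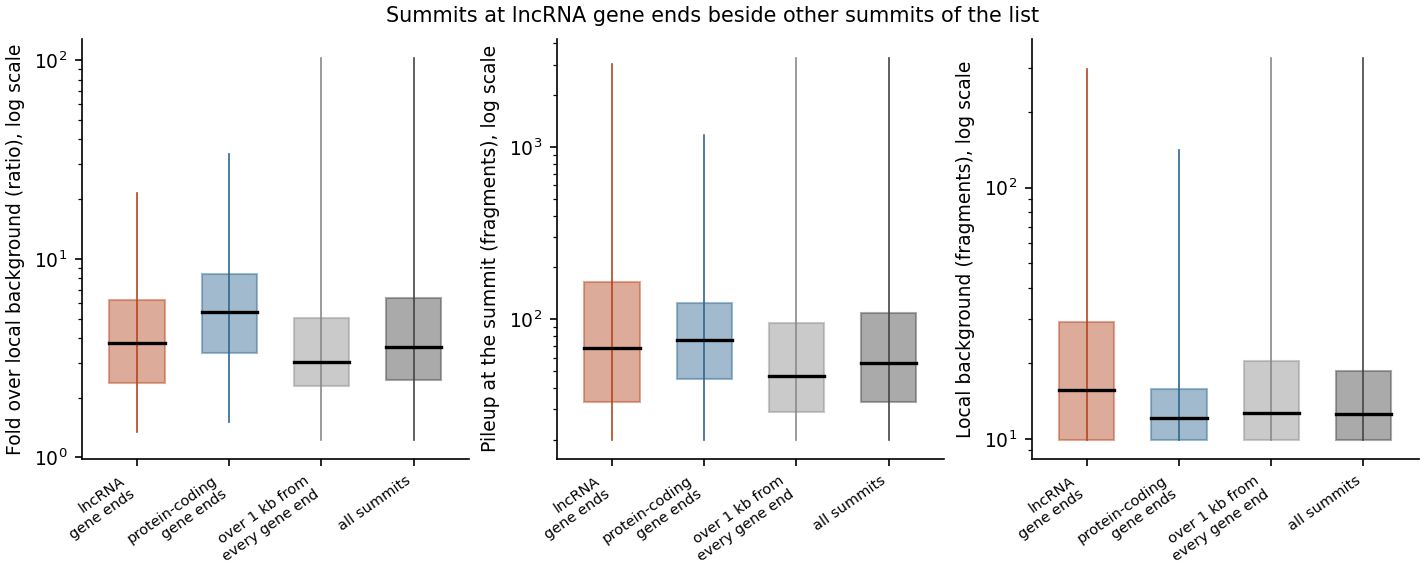
Fold, pileup and local background (log scales) at lncRNA gene ends (440 summits), protein-coding gene ends (8762), more than 1 kb from every gene end (17484) and over all summits (35535), with boxes for quartiles, black lines for medians and thin lines for the range. Median fold at lncRNA ends (3.75) is below that at protein-coding ends (5.41), while the upper quartile of their background (29.2) is above that of the other sets.

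The intervals were wide and held several summits. Taken per summit, the median interval width was 251 bp at lncRNA ends (quartiles 127 and 440 bp) and 149 bp at protein-coding ends. It was 188 bp away from gene ends and 167 bp over all sites. An interval with several summits entered these medians once for each of them, which gives such intervals more weight. Of the 440 sites 228 shared their interval with another summit (51.8%, 47.0 to 56.6%), beside 34.9% of all sites, 19.1% at protein-coding ends and 43.5% away from gene ends. The median number of other summits within 5 kb was 6, against 4 at protein-coding ends, 6 away from gene ends and 5 over all sites. The highest pileup within 5 kb was at 87 of the 440 sites (19.8%, 16.2 to 23.8%), beside 22.5% of all sites, 30.2% at protein-coding ends and 20.9% away from gene ends. A −log10 q of at least 10 was reached by 264 of the 440 (60.0%, 55.3 to 64.6%), beside 57.3% of all sites, 76.4% at protein-coding ends and 48.2% away from gene ends. In width, company and rank these sites were thus nearer to sites away from gene ends than to those at protein-coding ends.

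The highest folds were at lncRNA genes known by number only. The top fold was 21.6 at CR44299, with 294 fragments (95% Poisson interval 261 to 330) over a background of 12.7. Its summit at 2R 10782902 was 7 bp inside the left end of this gene (2R 10782895 to 10785597), which lies within CG33144. Next was CR46337 with a fold of 20.9 and 284 fragments (252 to 319), at 2R 12904440 in an interval that spans its left end. The nearest protein-coding end, 5055 bp away, was that of vg, which encodes the wing selector protein Vestigial. CR45565 on 3R had 2 summits among the 10 highest, at folds of 19.2 and 15.2 with 376 and 298 fragments, both inside the gene at its left end.

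The other 6 sites among the 10 highest folds were spread over 3 chromosome arms. CR44904, at 2L 18796240, had a fold of 18.9 and 305 fragments, 3334 bp from ham, which encodes the zinc-finger protein Hamlet. CR45267, at 2R 8018993, had a fold of 18.9 and 209 fragments over a background of 10.1, 183 bp outside the gene. CR43144, at 2L 21657620, had a fold of 17.8 and 212 fragments, 5 bp outside its left end and 1115 bp from Cul2, a cullin gene. These 2 sites had backgrounds near the genome-wide value and stood as single summits in their intervals. CR43604, at 2L 8485777 within dachs, which encodes an unconventional myosin of the Fat and Hippo pathway, had a fold of 17.4 and 321 fragments in an interval that reached across most of this lncRNA gene of 201 bp. CR45805 within Pdk1 had a fold of 16.0 and CR45937 on 3L a fold of 15.3.

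The highest pileups stood around the bantam microRNA on 3L. The host transcript of bantam, CR43334 (3L 628435 to 643900), had 1 site at its left end, at 3L 628294, 141 bp outside the gene. It had 3042 fragments (2935 to 3152), the second highest pileup of the list, and a fold of 10.2 over a background of 297. By fold it ranked 3338th in the list. Summits farther left in the same interval, at 262 and 404 bp from that end, had 2942 and 2367 fragments and fell outside the window of 250 bp. bantam promotes growth and blocks cell death in flies.

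A second lncRNA of that stretch, CR42719 (3L 615627 to 616646), had 4 sites in 1 interval at its right end. Their pileups were 494, 1120, 1812 and 1956 fragments from left to right, over a background near 130, at folds of 3.76, 8.54, 13.8 and 14.9. The strongest, at 3L 616883, lay 237 bp outside the gene and 11.6 kb from the left end of CR43334. It ranked 7th in the list by pileup and 955th by fold. CR44513, still farther left, had a weak site of 110 fragments at a fold of 1.46. Without these 6 sites the median of the other 434 was 66 fragments and 3.70 in fold, and the highest pileup was 981.

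**Figure D3:**
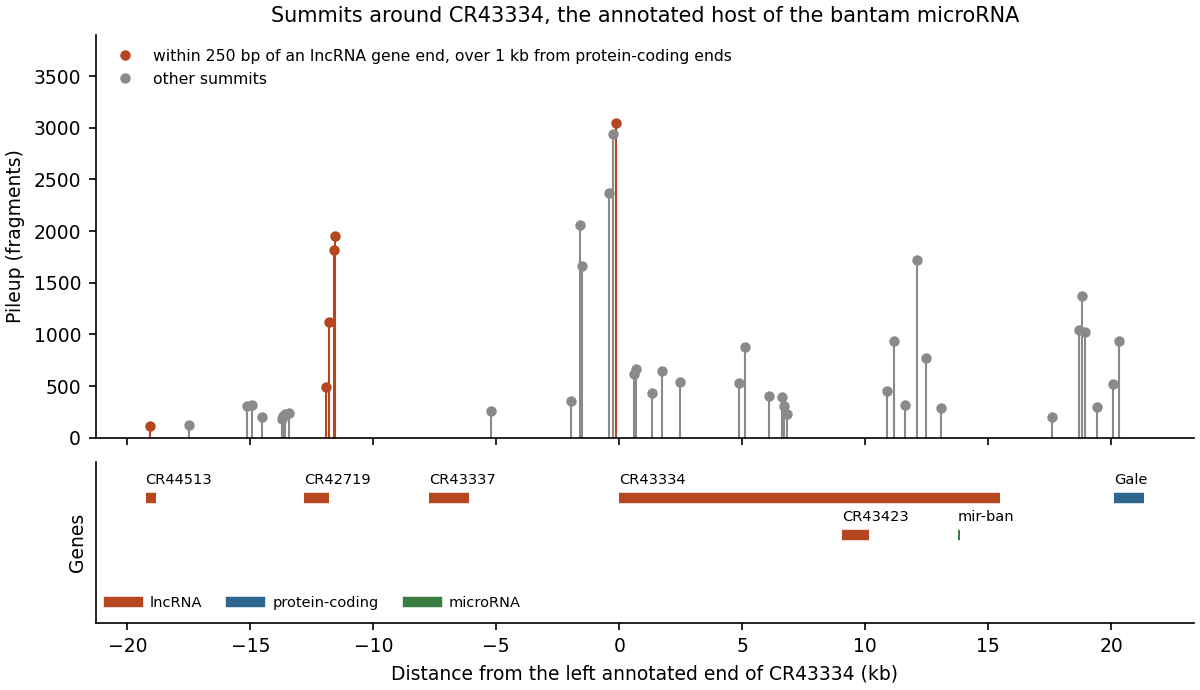
Pileup in fragments of every summit from 20 kb left of CR43334 to 5 kb past its right end, by distance in kb from its left annotated end, over the annotated genes. Coloured summits are those at lncRNA gene ends: 3042 at CR43334, up to 1956 at CR42719 and 110 at CR44513.

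Sites at the ends of other microRNA hosts were strong in several cases. Of the 1612 lncRNA genes 32 held an annotated microRNA, and 9 of these had a site (28.1%, 13.8 to 46.8%), beside 17.6% of all 1612. This group was picked after its values were seen, and its interval contains the overall share. CR43651, the primary transcript of mir-14, which limits cell death and fat storage, had 4 sites on both ends, with 410 fragments (371 to 452) at 2R 9552723, 121 bp outside the left end, and 100, 170 and 265 at the right end. CR43650, host of mir-8, a regulator of Wnt signalling and body growth, had 1 site of 349 fragments (313 to 388) at 2R 16828895, at a fold of 14.1. CR43459, host of mir-277 and mir-34, had 324 (290 to 361) and 268 fragments at 82 and 212 bp outside its left end at 3R 10093761.

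Sites of fewer fragments were found at the other hosts. CR31044, which holds mir-279 and mir-996, had 188 fragments (162 to 217) at 3R 29214551, 11 bp outside the left end. CR43857, which holds mir-275, had 113 (93.1 to 136) at 2L 7423819, 1 bp from its left end. CR44206, host of mir-184, a microRNA needed in the female germline, had 44 fragments (32.0 to 59.1), and CR43314, which holds mir-bft, had 2 sites of 31 fragments each. In both of these the sites were at the right end. The ninth host, Hsromega, is described below. The pileups of the hosts ran from below the median of the lncRNA-end sites to the highest among them.

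Of the 37 lncRNA genes with a name in place of a number that the rule could take, 6 had a site (16.2%, 6.19 to 32.0%), beside 17.6% of all 1612. Hsromega, whose nuclear transcripts organise the omega speckles and rise on heat shock, had 1 site of 78 fragments (61.7 to 97.4) at 3R 21296153, 26 bp inside its left end, at a fold of 4.37. A stronger summit of 346 fragments (311 to 384) at a fold of 19.6 stood in the same gene at 3R 21296556, beyond the window. Irar, an lncRNA gene inside the insulin receptor gene InR, had 96 fragments (77.8 to 117) at 38 bp outside its left end at 3R 21592350. Another lncRNA within InR, CR44034, had 191 (165 to 220). Vinr on X had sites of 243 (213 to 276) and 145 fragments near its right end, over a background of 47.8 and 46.6, among the sites of its neighbour CR44619, with which it overlaps. Vinr has been described as an RNA of the response to viruses.

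The other named genes with a site were marge, Uhg5 and yar. At marge (3L 14976626 to 14977631) there were 150 fragments (127 to 176) at a fold of 13.8 and 55 fragments, at either side of its right end and at the genome-wide background. Uhg5, a host of small nucleolar RNAs, had 71 (55.5 to 89.6) at 215 bp outside its right end, and yar, which lies between y and ac, had 32 (21.9 to 45.2) at 74 bp outside its left end, with a fold of 3.02. Of the 2 summits within 250 bp of an end of Uhg5, the rule took 1. A stronger summit of 114 fragments (94.0 to 137) at a fold of 8.48 stood at 2R 14622012, beyond the window. Counting intervals of the sites taken at Uhg5, Hsromega and Irar overlapped.

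**Figure D4:**
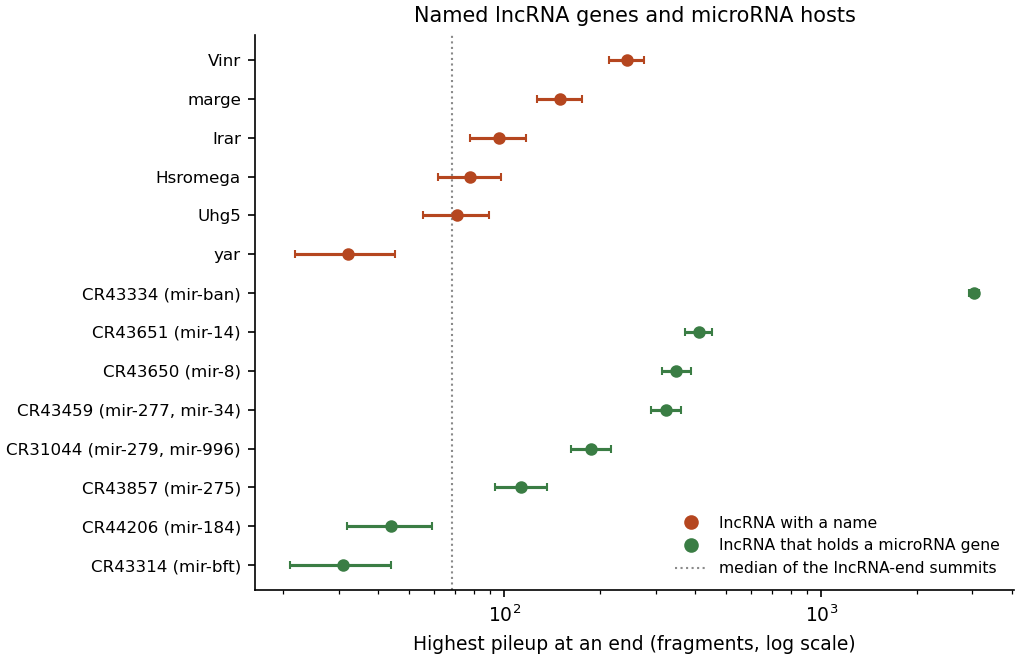
Highest pileup among the sites that met the rule at an end (fragments, log scale) with its 95% Poisson interval for the 6 named lncRNA genes, of which Hsromega also holds an annotated microRNA, and for the other 8 lncRNA genes that hold a microRNA. Pileups run from 31 at CR43314 to 3042 at CR43334, and the dotted line is the median of the lncRNA-end sites, 68.5.

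Other well-known lncRNA genes that the rule could take had their accessible sites away from their ends or none. bxd and iab8, in the bithorax complex that Polycomb proteins silence, had no summit within 250 bp of an end. They had 4 and 15 summits within the gene, the strongest with 410 fragments (371 to 452) at 3R 16764173 in bxd and 251 (221 to 284) at 3R 16869460 in iab8. acal, which limits JNK signalling, had 263 fragments (232 to 297) inside, at a fold of 4.63. CR31781 had 1 summit inside of 86 fragments, noe 1 of 25, and flam, the piRNA cluster of ovarian somatic cells, 1 of 40 in its 158841 bp. cherub, sphinx and TS14 had no summit in the gene or within 250 bp of it. let7C, host of the let-7 microRNA, had both ends within 1 kb of protein-coding ends, as did Uhg1, Uhg2, Uhg3, Uhg4, Uhg7 and Uhg8, so the rule could not take them. Of these 7 genes 6 had a summit within 250 bp of an end, all but Uhg7. It had 218 fragments (190 to 249) at a fold of 11.5 at Uhg4, 61 bp from its left end, and 126 (105 to 150) at a fold of 10.8 at Uhg8. At Uhg1, Uhg3, Uhg2 and let7C it had 89, 56, 55 and 26 fragments. IBIN is annotated as protein-coding in the table, msa is listed there under iab8, and Uhg6 had no match. Beside Uhg3, 3 genes had an older pncr name, and none of these 3 had a site.

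Some lncRNA genes had several sites, at 1 end or spread over both. In the shorter of these genes, such as CR45643 of 460 bp, the windows at the ends overlapped. CR45643 on 3R, 1944 bp or more from tara, the SERTAD family gene taranis, had 5 sites in 1 interval with 97 to 229 fragments over a background near 50. A further 9 genes had 4 sites each. CR44904, named above, had 146 to 305 fragments in and just past its 357 bp, and CR45936 had 171 to 488 fragments. CR46322, which lies inside the overlapping genes Hr3, CG12912 and CG46321, had 107 to 218. Hr3 encodes a nuclear receptor of the ecdysone response. CR44619 on X had 95 to 224. The lowest pileups of this group were at CR44363 (27 to 94 fragments), CR44474 within sm (21 to 58) and CR45722 (24 to 44). CR42719 and CR43651 complete the group. Of all 285 genes, 168 had 1 site, 78 had 2 and 29 had 3.

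Several of the stronger sites lay at lncRNA genes inside larger protein-coding genes. The hosts named here were chosen after the values were seen, and hosts not described had higher pileups than some of them, such as Sin3A with up to 372 fragments, bun with 327 and kay with 322. ush encodes U-shaped, a cofactor of the GATA factor Serpent in hemocytes, and holds 5 sites at 2 lncRNA genes. CR46258 had 620 (572 to 671) and 553 fragments at its left end and 213 at its right end, and CR46259 had 96 and 209. osa, which encodes a subunit of the Brahma chromatin remodeller, held 4 sites, the strongest at CR46036 with 556 fragments (511 to 604). At CR45805 in Pdk1, a kinase gene of the insulin pathway, 981 fragments (921 to 1044) stood 147 bp outside the right end of the lncRNA at 3L 131571. This was the highest pileup outside the bantam stretch.

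The hosts differed in background and fold. In pnt, an ETS factor gene of the EGFR pathway, CR46090 had 172, 191 and 440 fragments over a background of 117 to 118, at folds of 1.47, 1.62 and 3.71. In Hipk, a kinase gene, CR45808 had 432 fragments (392 to 475) at a fold of 5.90. In puc, the phosphatase gene that restrains JNK signalling, CR44331 had 140, 248 and 154 fragments at folds of 4.18, 7.42 and 4.65. In Eip63E, a cyclin-dependent kinase gene, CR45820 had 464 (423 to 508) at a fold of 14.8. Neural and eye genes were among the hosts as well. beat-Ib, a family member of the axon guidance gene beat, held 5 sites with up to 273 fragments, and so, the eye selector gene sine oculis, held 4 with up to 81.

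Sites inside protein-coding genes and outside them differed little in fold. The median pileup was 81 for the 171 inside and 63 for the 269 outside, with upper quartiles of 160 and 165. Median folds were 3.83 and 3.67, and median backgrounds 17.6 and 15.2. Summits inside the lncRNA gene had a median pileup of 72.5 and those outside it 66. Summits within 100 bp of the end had a median of 65 and those from there to 250 bp one of 76.

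**Figure D5:**
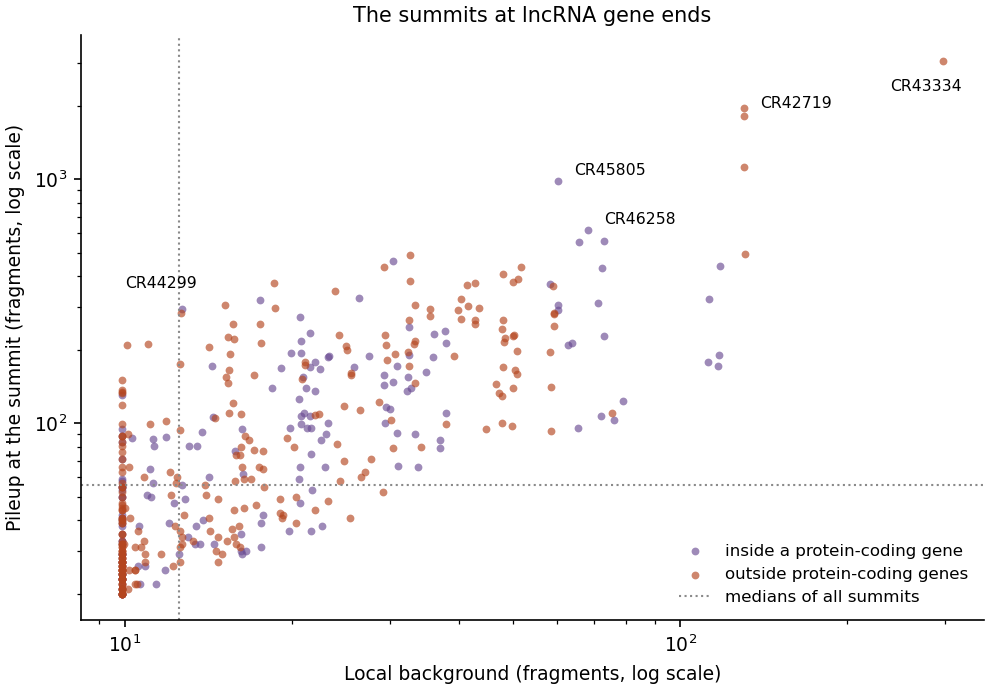
Pileup against local background (fragments, log scales) for the 440 summits at lncRNA gene ends, coloured by whether they lie inside a protein-coding gene, with dotted lines at the medians of all summits (56 and 12.5). The column of points at the left is the genome-wide background of 9.91, and the highest points are CR43334 at 3042 and CR42719 at 1956.

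The share of lncRNA genes with a site varied among the large chromosome arms, with overlapping intervals. On 2R 56 of 236 genes did (23.7%, 18.4 to 29.7%) and on 3L 78 of 369 (21.1%, 17.1 to 25.7%). The shares were 16.1% of 367 genes on 3R, 14.8% of 420 on 2L and 13.8% of 181 on X (9.14 to 19.7%), beside 18.3% of the 1392 on 2L, 2R, 3L and 3R together (16.3 to 20.5%). The intervals of X and of these arms overlapped. On chromosome 4, 4 of 8 genes had a site, with pileups of 24 to 102. On Y 0 of 31 did (exact interval 0 to 11.2%), and 3 counts of 31, the floor used for a count of 0, is 9.68%. By number, 127 of the 440 sites were on 3L, 93 on 2L, 85 each on 2R and 3R, 44 on X and 6 on chromosome 4. Those on X were 10% of the 440, beside 15.65% of all sites of the list. For the other chromosomes the share of the list is not given here, so their counts stand without that comparison. Median pileups ran from 40.5 on chromosome 4 to 96 on 3R, and on X the median was 74.5 over a background of 12.0.

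Few sites had another annotated end beside the lncRNA one. At 12 of the 440 a second lncRNA gene had an end within 250 bp, and at 7 a gene of another RNA class or a pseudogene did. The median distance to the nearest protein-coding end was 4112 bp, and 90 sites were more than 10 kb away. The sites nearest the limit of 250 bp from inside were CR45297 and CR45284 at 250 bp and CR44974 and CR44186 at 249 bp, with 254, 52, 178 and 136 fragments. Those just beyond were CR45677 and CR45810 at 251 bp, CR43431 at 252 bp and CR44148 at 254 bp, with 36, 64, 288 and 35 fragments. CR43431 had a fold of 26.2, above every site the rule took. Of the distance to protein-coding ends, the sites just past 1 kb had 306 (CR45661), 27 (CR45181), 39 (CR44164) and 192 fragments (CR46015), and those just within it 176 (CR43287), 101 (CR45223), 438 (CR45128) and 81 (CR44068).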

How the data were processed

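ATAC-seq of 2 libraries of S2 cells is described by 1 peak list. The submitters' processing notes name Bowtie2, MACS2, deepTools and the build dm6. Whether the libraries were pooled, and how reads were filtered or shifted, is not given in the sources used here. In the deposited list the fold column is a ratio of pileup to local background, and the −log10 p and −log10 q columns are the caller's own; the lowest −log10 q was 1.30. The deposited score was 10 times the −log10 q, cut to a whole number, in 35534 lines and off by 1 in 1 line, and was not used. Positions are given counted from 1, and the interval's middle stood in for the summit in 65 lines, 2 of them at lncRNA ends. Library depths and DNA copy number are unknown from this list, and pileups were not adjusted for either.

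The pileup and background of each summit were solved from its fold (pseudocount of 1) and −log10 p under a Poisson upper tail; 35535 of 35535 were met within 0.001, and the solver was tested on simulated data. Peak names call the units fragments. A background counted as genome-wide within 0.005 of the lowest. Genes came from a RefSeq table of Release 6 plus ISO1 MT, the assembly of dm6, with 17807 genes. Shares have exact (Clopper-Pearson) and counts exact Poisson 95% intervals, which cover counting error only: PCR copies and neighbouring summits are not independent. Motifs and gene starts were not analysed here. Named genes are lncRNA genes with a name, those of the 10 highest folds and 5 highest pileups, those with most sites (with ties), sites at the thresholds and a list of known lncRNAs. Members and lists were chosen with earlier results of these data known. Python 3.11.15, numpy 2.4.6, pandas 2.3.3, scipy 1.17.1 and matplotlib 3.10.9 were used. Alternatives were other windows, distances, peak thresholds, 1 summit per interval and overlap in place of the summit.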

Additional observations from a re-analysis of the deposited data

How the results depend on the processing

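Of the 45 values (5 results under 9 alternatives) 29 stayed within 1.5 times the count, or within the 95% interval of the share or median. With a window of 100 bp there were 173 sites at 153 genes (9.43% of 1612), and with 500 bp there were 717 sites and a share of 24.0%. Sites with a −log10 q of at least 10 numbered 264 at 176 genes (10.9%), with a median fold of 5.45 and a median pileup of 134.5. Sites at or above the list's median fold numbered 231 at 164 genes (10.2%), with medians of 6.06 and 140. Both thresholds remove weak sites, so these medians rise by construction. When the interval had only to overlap the window, the median pileup was 85. Distances of 500 bp or 2 kb from protein-coding ends and 1 summit per interval kept all 5 values within those bounds. Counting summits from 0, an alternative chosen after seeing the data, gave 441 sites, 439 of them shared. No paired analysis was possible because the list has no values per library. The number of genes with a site thus depends on the window and the peak threshold, and a gene without a site in the list may have one below the caller's threshold.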

Other observations

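Antisense RNA genes, which the table keeps as a class of 503 genes apart from lncRNA genes, had 68 sites by the same rule, 2 of them also at lncRNA ends. Protein-coding ends were over 1 kb from an end of 199 antisense RNA genes, and 46 of these had a site (23.1%, 17.5 to 29.6%), beside 17.6% of lncRNA genes, with overlapping intervals. Their median fold was 3.66 and their median pileup 58.5. Another 325 summits lay within 250 bp of an lncRNA end but no more than 1 kb from a protein-coding end. They had a median fold of 4.31, a median pileup of 77 and a median width of 194 bp.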
